A study of Mus musculus with 4 samples.

Results

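The genes described here are 10 transcription factor genes of the mouse retina, the Fos family (Fos, Fosb, Fosl1 and Fosl2), the Jun family (Jun, Junb and Jund) and the small Maf factors (Maff, Mafg and Mafk). They were chosen by name, as members of these families, with earlier results of these data known. All 10 are among the 22558 gene symbols of the full expression files. In the day 1 library of toxin-injured retina, whose file covers 5799 symbols, 2 of the 10 were measured, Fos and Mafg. The others have no line in that shorter file, so their absence says nothing of their level. Shares and ranks given below for day 1 cover the symbols of that file only.

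Expression was measured by RNA-seq in whole retina of mice aged about 8 weeks, on a C57BL/6 and 129 mixed background. Injured mice were Msi1-CreERT2/+; R26R-DTA/+. The Cre used, CreERT2, acts only while its receptor part is bound by a ligand and is driven here by Msi1 (Musashi), and R26R-DTA makes diphtheria toxin fragment A, which stops protein synthesis, in cells where Cre has acted. Control mice were +/+; R26R-DTA/+, so that every group carries the R26R-DTA allele and only the injured groups carry Cre. Retinas were taken at day 1 and at day 5 after injury, and each of the 4 groups is 1 library. The labels used here do not say how Cre was activated or how many mice went into a library.

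Fos and Jun proteins pair through leucine zippers to form AP-1, which binds short DNA elements and is induced by growth factors, cytokines and stress through MAP kinases. Jun proteins can pair with each other or with Fos and ATF proteins, whereas Fos proteins need a partner. Small Maf proteins carry a basic region and a zipper but no activation domain. They repress genes as pairs of their own kind and activate them with CNC proteins such as Nrf2. In the retina, AP-1 is known from studies of photoreceptor death by light, in which Fos takes part.

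Levels are FPKM, the fragments on a gene divided by transcript length and by the size of the library, so that genes can be compared with each other within a library. Differences are first group minus second group of log2(FPKM + 1). Calls were made by size: a gene counts as called higher or lower where its difference is 1 or more in size and either library reaches 5 FPKM. A difference of DTA from control must also exceed what separates the 2 controls for that gene. With 1 library a group there are no replicates, no spread between mice and no test. The depth estimated from the lowest values ran from 28.8 M to 99.1 M fragments, so that 1 fragment on 1 kilobase of transcript is worth 0.0101 to 0.0347 FPKM. The confidence bounds the authors deposited cover counting within a library, and 12 of the 32 member values lie above their own upper bound, so they are not printed as errors.

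At day 5 after injury all 10 factors had more transcript in DTA than in control retina, and 6 were called higher: Maff, Junb, Jun, Fosb, Fos and Mafk. None was called lower. The median difference of the 10 was 1.71, with a range from 0.59 (Fosl2) to 4.68 (Maff). Over all 22541 genes measured at day 5, 2.96% were called higher, and over the 9895 of them at 5 FPKM or more in one library 6.74% were. The median difference of those 9895 genes was 0.26 and 74.6% of them lay above 0, so a small positive difference was the usual one at day 5. Scaling the libraries by their median ratio multiplied the DTA values by 0.844, a shift of -0.24 on the log2 scale of FPKM, and 6 members were again called.

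**Figure D1:**
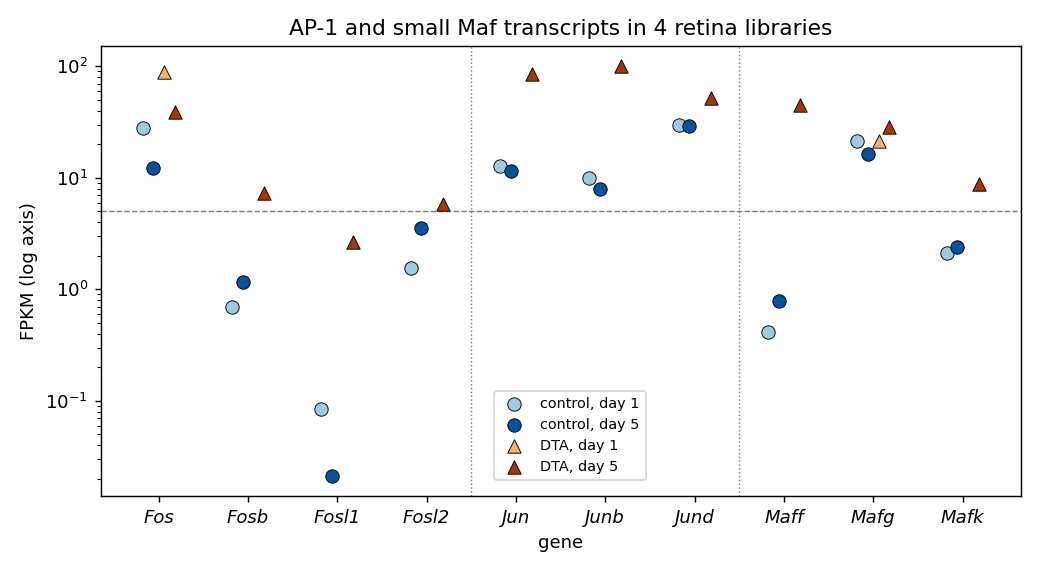
FPKM of each gene (log axis) in the 4 libraries, with circles for control and triangles for DTA retina, and a dashed line at 5 FPKM. The day 5 DTA triangle is the highest point for each gene but Fos, whose day 1 DTA value of 89.6 FPKM is higher, and Fosl1 is the gene whose points all lie under the line.

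In the Fos family, Fos itself was the most abundant transcript in the 3 libraries in which all 4 genes were measured. Fos (mm9 chromosome 12, 86814851 to 86818219, plus strand, 4 exons) encodes the founding Fos protein, an immediate early gene product. The bases before its start are shown because Fos is the member measured high at both days. The sequence is from RefSeq, build GRCm38.p6, chr12:85473640-85473889, plus strand, the 250 bases before the annotated start. Capitals mark a match to the NF-kappa B site on the opposite strand and a TATAAA at positions -33 to -28 from the start.
Fos: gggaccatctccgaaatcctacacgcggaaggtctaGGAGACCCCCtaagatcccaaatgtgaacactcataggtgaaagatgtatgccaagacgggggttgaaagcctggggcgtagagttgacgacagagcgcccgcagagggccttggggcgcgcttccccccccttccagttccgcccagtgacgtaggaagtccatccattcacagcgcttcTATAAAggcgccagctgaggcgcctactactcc

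At day 1 Fos measured 28.1 FPKM in control and 89.6 in DTA retina, and at day 5 it measured 12.4 in control and 38.6 in DTA. Both DTA values exceeded both control values, but the controls were themselves apart: day 5 DTA was 3.13-fold over the control of its own day and the day 1 control was 2.27-fold over the day 5 control. The differences were 1.64 at day 1 and 1.57 at day 5, and both were called. The day 5 call rests on the control of that day, since against the day 1 control the difference was 0.45 and against the mean of both controls 0.90, neither of which was called. Against the day 5 control the day 1 difference was 2.76.

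Fos was lower at day 5 than at day 1 in both kinds of retina. Between the DTA libraries the difference was -1.19 and between the controls -1.12, and the difference of DTA from control changed by -0.07 from day 1 to day 5. Fos was thus 3.19-fold over its control at day 1 and 3.13-fold at day 5, on levels that were 2.32-fold lower in DTA retina at the later day. Of the 5787 genes measured in both DTA libraries 1.62% were called lower at day 5, Fos among them and Mafg not.

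Fosb (chromosome 7, 19888045 to 19895394, minus strand), whose protein pairs with Jun much as Fos does, measured 0.701 and 1.16 FPKM in the controls of day 1 and day 5 and 7.33 in day 5 DTA. The controls differed by 0.34 and DTA was 6.33-fold over the day 5 control, a called difference of 1.95. Fosl1 (chromosome 19, 5447698 to 5455938, plus strand), which encodes Fra-1, stood at 0.0843, 0.0213 and 2.66 FPKM in the same order. In the day 5 control its value amounts to about 1 fragment and in day 5 DTA to about 131, so no fold is given. Its difference of 1.84 was not called, because no library reached 5 FPKM, and with a floor of 1 FPKM it was. Exons of Fosl1 overlap those of Ccdc85b on the opposite strand, which stood at 7.41 and 12.1 FPKM at day 5, and the strand of the fragments is not given, so the source of some Fosl1 fragments is uncertain.

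Fosl2 (chromosome 5, 32438845 to 32460212, plus strand), which encodes Fra-2, measured 1.56 and 3.53 FPKM in the controls of day 1 and day 5 and 5.82 in day 5 DTA. The day 5 DTA value was the highest, but the controls differed by 0.83, more than the 0.59 between DTA and control at day 5, and Fosl2 was not called. Against the day 1 control its difference was 1.42, which was called. Fosl2 and Fos are therefore the members whose day 5 call turns on which control is used, and they turn in opposite directions.

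The Jun family was ordered differently in injured and control retina. Jun, Junb and Jund are genes of 1 exon each. Jund was the most abundant of them in both controls, and in day 5 DTA Junb was, followed by Jun. Jun (chromosome 4, 94715727 to 94718913, minus strand) encodes c-Jun, the transcription factor that the JNK kinases phosphorylate. The bases before its start are shown for a match that stands at the same positions before one start of Maff. They are from RefSeq, build GRCm38.p6, chr4:95052223-95052472, minus strand, the 250 bases before the start, written in the direction of transcription. Capitals mark TGACATCA, a variant of the AP-1 and CREB elements that was added to the search after the sequences were seen, at positions -45 to -38.
Jun: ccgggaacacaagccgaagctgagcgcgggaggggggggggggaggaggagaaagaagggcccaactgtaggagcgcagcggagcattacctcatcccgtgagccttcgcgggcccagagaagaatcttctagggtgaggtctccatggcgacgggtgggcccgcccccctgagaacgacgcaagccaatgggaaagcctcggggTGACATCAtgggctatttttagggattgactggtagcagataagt

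Jun measured 12.9 and 11.5 FPKM in the 2 controls, day 1 first, and 85.6 in day 5 DTA. The controls lay within 1.12-fold of each other and DTA was 7.44-fold over the day 5 control, a called difference of 2.79. Junb (chromosome 8, 87500808 to 87502647, minus strand), a Jun protein that activates weakly and can restrain c-Jun, stood at 10.1, 8.03 and 99.97 FPKM in the same order. Its 2 controls were again close, and day 5 DTA was 12.5-fold over its control, a called difference of 3.48. Junb had the highest level of all 10 members in that library.

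Jund (chromosome 8, 73221638 to 73224515, plus strand), the Jun gene that most cells express constantly, measured 29.7 and 29.0 FPKM in the 2 controls and 52.5 in day 5 DTA. It was the steadiest member between the controls, with a difference of -0.03, and its day 5 difference of 0.83 (1.81-fold) lay under the size rule. After median ratio scaling it was 0.59. Annotated exons of BC042782 overlap those of Jun and of Gm11175 those of Jund on the opposite strands, and neither gene has values in the files.

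Among the small Maf factors, Maff had the largest difference of all members. Maff (chromosome 15, 79178108 to 79189506, plus strand, 3 exons) is known as the stress- and cytokine-inducible one of the 3. Its bases are shown as those of the member with the largest difference, for 1 of its 3 RefSeq starts, build GRCm38.p6, chr15:79347270-79347519, plus strand, the 250 bases before the start. Capitals mark TGACGTCA, the cAMP response element that ATF and CREB proteins and some Jun pairs bind, at positions -29 to -22.
Maff: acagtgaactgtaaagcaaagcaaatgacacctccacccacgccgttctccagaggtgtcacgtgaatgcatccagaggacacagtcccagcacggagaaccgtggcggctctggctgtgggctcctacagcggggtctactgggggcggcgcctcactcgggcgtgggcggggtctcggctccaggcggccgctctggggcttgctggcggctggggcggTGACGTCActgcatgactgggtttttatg

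Maff measured 0.411 FPKM in control at day 1, 0.783 in control at day 5 and 44.6 in DTA at day 5. Both controls were under 1 FPKM, about 58 and 54 fragments, and day 5 DTA was 57.0-fold over its control. The difference of 4.68 ranked 36 among the 9895 genes at 5 FPKM or more. With a pseudocount of 5 it was 3.10, and with 0.1 it was 5.66.

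Mafg (chromosome 11, 120489667 to 120494861, minus strand), the small Maf most abundant in control retina, measured 21.6 FPKM in both libraries of day 1, and at day 5 it measured 16.3 in control and 28.8 in DTA. At day 1 DTA and control were level, with a difference of -0.003. At day 5 DTA was 1.76-fold over its control, and the difference of 0.78 was not called. The control of day 1 lay between the 2 values of day 5, and against it the day 5 difference was 0.40.

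Mafk (chromosome 5, 140267490 to 140278606, plus strand), the third small Maf, measured 2.11 and 2.39 FPKM in the controls of day 1 and day 5 and 8.85 in day 5 DTA. The controls were close and DTA was 3.70-fold over the day 5 control, a called difference of 1.54. With a pseudocount of 5 the difference was 0.91, under the size rule. Exons of Mafk overlap those of Tmem184a on the opposite strand, which stood at 0.0231 and 1.00 FPKM at day 5, well under Mafk in both libraries.

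**Figure D2:**
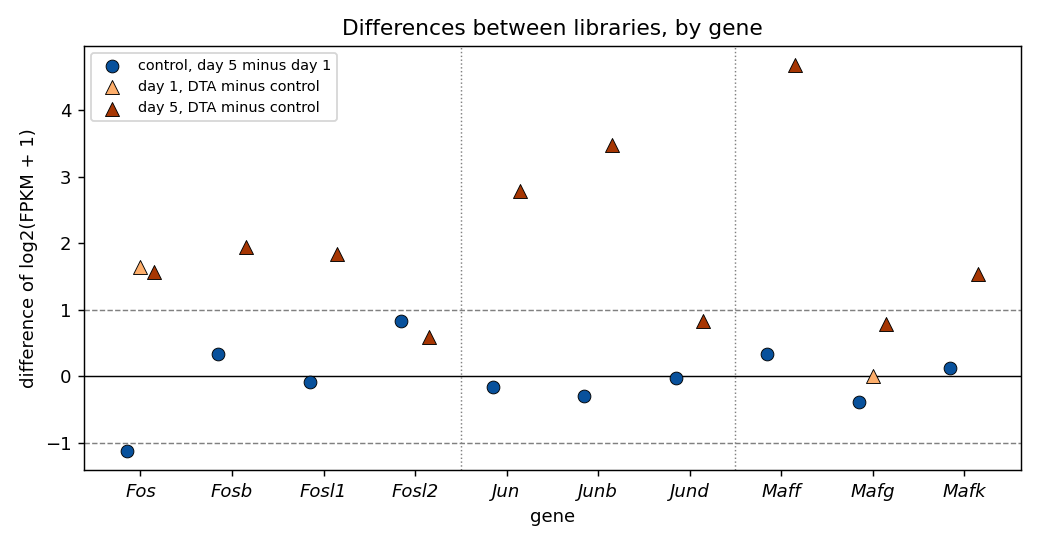
Difference of log2(FPKM + 1) for each gene: control day 5 minus control day 1 (blue circles), DTA minus control at day 1 (pale triangles, Fos and Mafg) and DTA minus control at day 5 (dark triangles), with dashed lines at 1 and -1. All 10 dark triangles are above 0, and Fosl2 is the gene whose dark triangle (0.59) lies below its circle (0.83).

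At day 1, 1 of the 2 measured members, Fos, was called higher. Over the 5785 genes measured at that day 0.933% were called higher, and 2.06% of the 2623 at 5 FPKM or more. The difference of Fos ranked 41 among those 2623 genes, while Mafg ranked 1578. Between the 2 controls, 1 of the 10 members was called, Fos, which was lower at day 5, against 1.07% of 22532 genes called either way. The 10 differences between controls had a median of -0.06 and ran from -1.12 to 0.83.

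Because FPKM is per length, the share of each gene in the summed level of its family can be compared across libraries. The Jun family summed to 52.7 and 48.5 FPKM in the controls of day 1 and day 5 and to 238 in day 5 DTA. Jund made up 56.4% and 59.8% of it in the controls and 22.0% in day 5 DTA, where Junb made up 41.99% and Jun 36.0%. The small Maf family summed to 24.1, 19.5 and 82.3 FPKM in the same order. Mafg made up 89.6% and 83.7% of it in the controls and 35.0% in day 5 DTA, whereas Maff went from 1.70% and 4.01% to 54.2%.

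In the Fos family the leading gene was Fos in all 3 libraries. The family summed to 30.4 and 17.1 FPKM in the controls of day 1 and day 5 and to 54.5 in day 5 DTA. Fos made up 92.3%, 72.4% and 71.0% of it, and the step between the controls was larger than that between DTA and control at day 5. Fosb had 13.5% and Fosl1 4.89% in day 5 DTA, against 6.78% and 0.12% in the day 5 control.

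**Figure D3:**
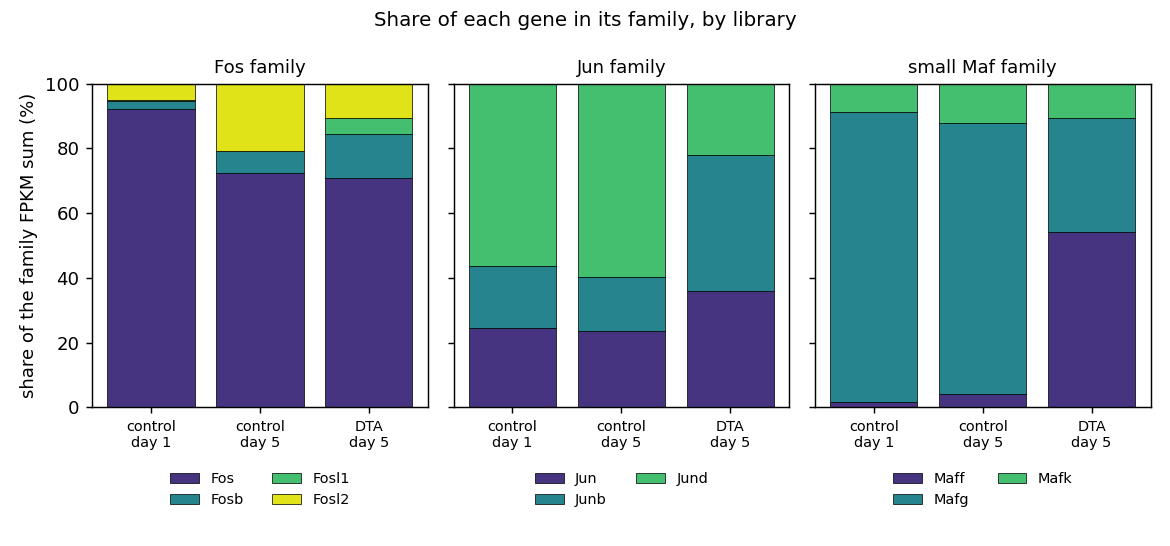
Share of each gene (percent) in the summed FPKM of its family, in the 3 libraries in which all members were measured. Junb and Jun make up most of the Jun bar and Maff most of the small Maf bar in day 5 DTA, where Jund (59.8% of the day 5 control) and Mafg (83.7%) make up most of the control bars.

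The promoter windows of the members, 250 bases before to 50 after each annotated start, were searched on both strands. RefSeq windows were matched for 9 members, 11 windows in all, because Maff has 3 starts. TGACTCA, the classic AP-1 element, was in none of the 11, and in 5.20% of all 32851 windows. The CArG box, the site of serum response factor, was also in none, against 1.63% of all windows. Bases further than 250 before a start were not searched, so an element absent from a window may still lie upstream of it, for Fos as for the others. TGACGTCA was in 1 window, that of Maff shown above, and in 1.79% of all. TGACNNNGC, the core of the antioxidant response element that CNC and small Maf pairs bind, was in 1 window each of Maff, Mafg and Mafk and in 12.4% of all.

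Other letters were found in Fos and Maff. The NF-kappa B site matched windows of Fos, Fosb, Fosl2 and Maff (8.46% of all), TATAAA those of Fos and Junb (13.6%), and TTCNNNGAA, a STAT site, 1 of Maff (8.30%). TGACATCA was in the windows of Jun and of another start of Maff, at positions -45 to -38 in both, and in 3.62% of all. These are matches of letters in short windows and say nothing of binding.

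6 kinds of related genes were listed from textbook knowledge and set beside the members. The lists were made with earlier results of these data known, so they are no independent reference. At day 5, 2.96% of all measured genes and 6.74% of those at 5 FPKM or more in one library were called higher, with medians of 0.06 and 0.26. At day 1 these shares were 0.933% and 2.06%. Of 16 ATF, JDP and BATF genes, whose proteins pair with Jun or Fos, 2 were called higher at day 5, none lower, and the median difference was 0.53. They were Atf3, a stress-induced partner of Jun, at 3.76 FPKM in control and 42.7 in DTA (3.20), and Atf4, the effector of the integrated stress response (2.28). Atf2, a JNK target, was the lowest of those at 5 FPKM or more, at 0.22. At day 1 Atf3 was called as well (1.47), with 2.30 FPKM in control and 8.16 in DTA, but not with a pseudocount of 5 (0.85) or against the day 5 control (0.95).

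Of 11 CNC, Bach and large Maf genes 1 was called higher and 1 lower at day 5, with a median of -0.005. Nfe2l2, which encodes Nrf2, a partner of small Maf proteins, stood at 8.44 and 19.7 FPKM (1.13). That call was lost against the day 1 control (0.87), with a pseudocount of 5 (0.87) and after median ratio scaling (0.90). Nrl, the large Maf that specifies rods, stood at 780 and 153 FPKM (-2.34), so that within the Maf genes Nrl and Maff had differences of opposite sign. Of 20 genes known as targets of CNC and small Maf pairs 1 was called higher and none lower (median 0.48). That share rests on 1 gene, and the list also holds genes under 5 FPKM. It lay between the 2.96% called higher among all measured genes and the 6.74% among those at 5 FPKM or more. The list median was above the medians of both, 0.06 and 0.26. Hmox1, heme oxygenase 1, was the target called, at 1.32 and 11.7 FPKM, and Gsta4, a glutathione transferase, was the lowest at -0.37. At day 1 the largest of these was Txnrd1, a thioredoxin reductase, at 13.1 FPKM in control and 20.02 in DTA (0.58), and the one CNC gene measured, Nfe2l1, was at -0.06, neither of them called.

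Of 23 measured MAP kinase and serum response genes 2 were called higher and none lower at day 5 (median 0.22). The share called was above the 2.96% of all measured genes and near the 6.74% of those at 5 FPKM or more. The median lay between the 0.06 and 0.26 of the same sets, and the list also holds genes under 5 FPKM. The 2 were Map3k14, the kinase NIK of the NF-kappa B pathway (1.65), and Map3k1, a kinase upstream of JNK (1.32). Map3k14 was also called at day 1, at 4.69 FPKM in control and 17.2 in DTA. Map3k12, the kinase DLK, was the lowest at -0.38. These are transcript levels, and kinase activity was not measured.

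Of 25 genes known as AP-1 targets 7 were called higher and none lower at day 5, with a median of 0.50. Icam1, an adhesion molecule, had the largest difference (6.27), and Mmp9, a metalloproteinase, the lowest among those at 5 FPKM or more (-0.16). At day 1, 1 of 6 measured, the chemokine Ccl2, was called (3.22), at 0 FPKM in control and 8.32 in DTA. Gja1 was lower at day 1 (-2.12), at 8.79 FPKM in control and 1.24 in DTA. It was not called because its controls differed by more (-2.31). Of 23 other immediate early genes 7 were called higher and 1 lower at day 5 (median 0.67). Egr1, a zinc finger factor, had the largest difference (3.94), but its controls differed by -2.08, and against the day 1 control (1.85) it was not called. Sik1, a kinase of the CREB pathway, was the one lower (-1.09), a call lost with a pseudocount of 5 (-0.63) and against the day 1 control (-0.45). At day 1 none of 5 was called, and Klf6 had the largest difference of those at 5 FPKM or more (0.78). Egr2 had a larger one (2.30), with 0.0617 FPKM in control and 4.23 in DTA, and was not called because neither library reached 5 FPKM. The 10 members had a median of 1.71 beside these list medians, and 6 of 10 called beside 7 of 23 immediate early genes and 2 of 16 partners, as a description with no test.

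By the shape of their levels across libraries, measured as the root mean square distance of log2(FPKM + 1) after each gene's own mean was taken off, Fos was closest to the stress gene Gadd45g (0.28), the surface antigen gene Cd24a (0.31) and the histone gene Hist1h4n (0.37) among 2459 genes over 4 libraries. Maff was closest to the acute phase gene Lcn2 (0.07), the metalloproteinase inhibitor gene Timp1 (0.07) and the metalloreductase gene Steap4 (0.12) among 9080 genes over 3 libraries. Junb was closest to Csf1, a growth factor of macrophages (0.04), Bst2, an interferon-induced gene (0.06) and H1foo (0.14). With 3 or 4 libraries many genes come close, and the likeness carries no test.

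Markers of cell types differed between the libraries as well. At day 5 the 13 microglia and macrophage markers summed to 23.0 FPKM in control and 174 in DTA, 10 were called higher and none is listed at 0, while in the day 1 control they summed to 23.8. The 10 rod markers summed to 14917 FPKM in the day 5 control and 4159 in DTA, with 7 called lower, and of 8 cone markers 5 were called lower. The 10 Müller glia markers summed to 1875 FPKM in the day 5 control and 1127 in DTA, with 2 called lower, Glul (-2.47) and Rlbp1 (-1.41), and a median of -0.41. Between the controls none was called and their median was -0.39. The 14 lens markers, from tissue next to the retina, summed to 2050 and 266 FPKM in the controls of day 1 and day 5 and to 16.6 in day 5 DTA. The 10 markers of other leukocytes summed to 0.298 and 1.97 FPKM at day 5. No marker was called at day 5 in that list or in those of bipolar, amacrine, horizontal and ganglion cells, endothelium, pigment epithelium, red blood cells, and cornea, iris, muscle and connective tissue. The 8 pigment epithelium markers still summed to 161 and 41.5 FPKM in the controls of day 1 and day 5 and to 18.6 in day 5 DTA, and 4 were called lower between the controls. At day 1 the 3 measured microglia markers summed to 3.06 FPKM in control and 4.14 in DTA with none called, and the 7 measured lens markers to 1014 and 2015. The 3 measured Müller glia markers summed to 1069 FPKM in control and 575 in DTA at that day. Of these Sox9 was called higher (1.05), while Glul (-0.92) and Kcnj10 (-0.67) were lower and not called. In whole retina more transcript per cell and more cells of a type that expresses a gene cannot be told apart, and the part of these shifts in the members' differences was not tested.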

How the data were processed

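Per the labels' protocols, retinal RNA was taken up in Sepazol and sequenced from Illumina mRNA-seq libraries. The deposited values are FPKM per gene with confidence bounds and a status, per the file headers. Cufflinks 2.1.1, CASAVA 1.8.2, bcl2fastq 1.8.4 and the mm9 build appear in the submitters' processing notes without roles. The aligner, the annotation and the strand setting were not given in the sources used here. FPKM is relative to all fragments of a library, so the abundant rod transcripts weigh on the values of other genes.

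Lines with status FAIL or HIDATA were read as missing, none of them a member, and the FPKM of symbols with several loci were summed. Starts had 1 added. Depth was estimated by taking the commonest low value of FPKM times length as 1 fragment, over genes with 1 transcript of more than 1500 bases, and folds are given where both libraries hold at least 20 estimated fragments. Calls used a pseudocount of 1, a size of 1 and a floor of 5 FPKM. The call rule was run on simulated data made from the day 5 control, with small added noise and planted changes well past the size rule. That run checks that the rule works as written, and says nothing of how often replicates would differ. Groups were taken from the sample titles. Gene models are GENCODE M1 on NCBIM37 (mm9). Python 3.11.15 and pandas 2.3.3 were used.

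The members and lists were chosen with earlier results of these data known. All 10 members are named. Each list gives the genes with the largest and smallest difference at day 5 and the largest at day 1, at 5 FPKM or more. Others called in short lists, and Gja1 and Egr2 at day 1, are named as well. By likeness come 3 genes each for Fos, Maff and Junb. Alternatives were other pseudocounts, scalings, floors, sizes and controls, and the deposited bounds. Protein sequences were not used here.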

Additional observations from a re-analysis of the deposited data

Results flagged for a closer look

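Mafg was level between DTA and control at day 1 (-0.003) and higher in DTA at day 5 (0.78), which makes the signs of the 2 days opposite and the change between them 0.79. The difference was not tested, with 1 library a group. The day 1 value is near 0, and against the day 5 control it was 0.38.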

How the results depend on the processing

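No paired analysis was possible because each group has 1 library. For the same reason no replicate could be left out. At day 5 the number of members called stayed between 5 and 8 over 11 alternatives, all of them higher. Alternatives that changed only the floor, the size, the bounds or the rule on controls left each difference as it was, and a pseudocount cannot change its sign. Only the scalings and the other controls could bring a value to 0 or below. A lower floor, a smaller size or no rule on controls can only add calls. Of the 110 member values at day 5 under these alternatives 110 were above 0, and in 102 the call was as reported. The 8 others were Fos against the day 1 control (0.45) and the mean of both controls (0.90) and Mafk with a pseudocount of 5 (0.91), which lost their call, and Fosl1 with no floor or a floor of 1 FPKM (1.84), Fosl2 against the day 1 control (1.42), and Jund (0.83) and Mafg (0.78) at a size of 1.5-fold, which gained one. At day 1 Fos was called under each of the 11 alternatives (1.52 to 2.76). Between the controls the number of members called went from 1 to 0 with a pseudocount of 5, and between the DTA libraries it was 1 under each alternative. Over the related lists 22 genes were called at day 5, and 18 to 20 under the 3 alternatives tried. Against the day 1 control Egr1, Nfe2l2, Sik1 and Vim lost their call, while Atf7 and Npas4 gained one. Median ratio scaling lost Egr2, Lif, Nfe2l2 and Vim, and a pseudocount of 5 lost Nfe2l2 and Sik1. At day 1 the number of list genes called was 3, and 2 with a pseudocount of 5 and against the day 5 control, where Atf3 was lost. The day 1 comparison covers 2 members, and the Fosl1 values in the controls rest on about 11 and 1 fragments.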
